A study of Mus musculus with 15 samples.

Results

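The genes described here encode the membrane transporters of 8 solute carrier families that move bicarbonate, protons, sodium, chloride, calcium and zinc. Members were all rows of the gene count tables whose symbol began with Slc4a, Slc8a, Slc9a, Slc12a, Slc24a, Slc26a, Slc30a or Slc39a followed by a digit, which gave 73 of 78298 listed genes. By family these were 11 Slc4, 3 Slc8, 9 Slc9, 9 Slc12, 5 Slc24, 11 Slc26, 10 Slc30 and 15 Slc39 genes. The symbol match also took in Slc4a1ap, the nuclear protein kanadaptin named for its binding of an Slc4 exchanger, and Slc39a1-ps, a pseudogene, and the other 71 are transporters.

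The study sequenced polyadenylated RNA of small intestinal organoids of the mouse, which are cultures of the gut epithelium grown from crypts of adult female mice of C57BL/6J background, in 15 libraries, 3 for each of 5 conditions. All lines were transduced with lentivirus, selected with an antibiotic and carried a transgene behind L30, a weak promoter active in all cells. Halo-NLS, the control, expressed the V5-Halo tag with a nuclear localisation signal (V5-Halo-GDGAGLIN-NLS_IRES_Puro). SOX9-Halo organoids carried Sox9-GDGAGLIN-Halo-V5_IRES_Puro and SOX9-mEGFP organoids Sox9-GDGAGLIN-mEGFP-V5_IRES_Puro, so that both overexpressed SOX9, a transcription factor of the crypt base. Each SOX9 line was sampled once while its organoids still budded (SOX9-Halo_budding, SOX9-mEGFP_budding) and again later, when they had become round (SOX9-Halo_spheroid, SOX9-mEGFP_spheroid). The spheroids also carried a second transgene, H2B-GDGAGLIN-mEGFP-V5_IRES_Zeo in the SOX9-Halo line and H2B-GDGAGLIN-mScarletI-V5_IRES_Neo in the SOX9-mEGFP line. Shape, time in culture and the H2B transgene therefore changed together and cannot be told apart, and each tag is represented by 1 line. The libraries of a condition are described as biological replicates, taken at nearby passages of the same line, so the tests measure the spread between harvests of that line.

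In the small intestine, absorptive enterocytes take up sodium by exchanging it for protons through NHE3 (Slc9a3) and take up chloride in exchange for bicarbonate through DRA (Slc26a3) and PAT1 (Slc26a6), all in the brush border. Crypt cells load chloride across the basolateral membrane through NKCC1 (Slc12a2) for secretion. Slc4 proteins exchange chloride for bicarbonate or carry sodium with bicarbonate, mostly basolaterally. Zinc enters the cytosol through the ZIP proteins (Slc39), with ZIP4 apical and ZIP5 basolateral in enterocytes, and leaves it for the outside or for vesicles through the ZnT proteins (Slc30), with ZnT2 (Slc30a2) known for loading zinc into Paneth cell granules.

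Between 28062722 and 40559766 reads per library were counted on genes. Values below are normalized counts, that is counts scaled to the mean effective library size, and levels of different genes are compared only per kb of exon. Sox9 counts, which include the transgene, were 305 to 769 in Halo-NLS and 6487 to 23654 in 11 of the 12 SOX9 libraries, and 1336 in SOX9-Halo_budding replicate 1. The summed epithelial markers Epcam, Cdh1 and Vil1 reached 47223 to 119929 in every library, whereas mesenchymal, endothelial and blood lists stayed at 101, 33.9 and 76.7 or less. The 8 enterocyte markers summed to 175762 to 347942 in Halo-NLS, 46934 to 261583 in the budding organoids, 7589 to 19142 in SOX9-mEGFP_spheroid and 77.6 to 215 in SOX9-Halo_spheroid. In bulk RNA, fewer cells of a type and less RNA per cell cannot be told apart, and the part of cell composition in the results below was not tested. Replicates of Halo-NLS stood apart by base composition: across 11052 genes, the rank correlation of the deviation from the condition's mean with GC content was -0.701 in replicate 1 and 0.533 and 0.334 in the other two, and in SOX9-Halo_budding it was -0.527, 0.705 and -0.419. AT-rich members such as Slc4a7 (42.2% GC, Halo-NLS at 1618, 223 and 279) also spread widely within that condition. A fit with each library's GC trend removed is therefore given where it changes a call of a transporter described below. Neither this fit nor refits without 1 library are given for the other genes named beside the transporters.

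Of the 73 members, 42 had more than 3 counts in every library and 4 had 3 or fewer in all. The count filter left 56 to be tested, and the 17 others never exceeded 33 counts. A member was called at an adjusted p of at most 0.01 (edgeR's quasi-likelihood test, Benjamini-Hochberg over all 17560 genes tested), a mean normalized count over all libraries of 10 or more and a fold of 2 or more. By this rule 33 members were called in at least 1 comparison of 2 conditions and 23 were tested and called in none.

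As among all genes tested, calls among the transporters came mainly from the comparisons that included spheroids. Against Halo-NLS, 10 of the 56 tested members were higher and 14 lower in SOX9-Halo_spheroid, beside 13.6% and 15.3% of all genes tested. In SOX9-mEGFP_spheroid 13 were higher and 10 lower (15.3% and 12.1% of all genes). SOX9-Halo_budding differed from Halo-NLS in 3 higher and 1 lower member (2.49% and 1.26% of all genes), and SOX9-mEGFP_budding in 2 higher and 0 lower (1.99% and 0.763%). For the last count, edgeR gave 7 members lower at an unadjusted p under 0.05, and DESeq2 called 2. Within the lines, SOX9-Halo_spheroid had 6 members higher and 15 lower than SOX9-Halo_budding (10.5% and 14.7% of all genes), and SOX9-mEGFP_spheroid had 7 higher and 9 lower than SOX9-mEGFP_budding (8.55% and 7.88%). The median log2 fold change of the tested members was -0.22, 0.07, 0.18, 0.14, -0.37 and -0.10 in these 6 comparisons, with that of all genes between -0.08 and 0.03. With genes that held no more than 3 counts in a group set at their bound, 3 of these medians became 0.14, 0.13 and -0.21 (both budding conditions against Halo-NLS and SOX9-Halo_spheroid against SOX9-Halo_budding). All called members had groups that did not overlap. With 3 libraries per group the thresholds for a call make this likely, and the share over all genes was not computed. By role, the calls against Halo-NLS in SOX9-Halo_spheroid included 6 of 13 tested zinc importers, 3 of 9 zinc exporters, 5 of 8 Slc26 exchangers, 3 of 7 Slc4 transporters, 2 of 8 cation chloride cotransporters, and the surface sodium proton exchangers Slc9a2, Slc9a3, Slc9a4 and Slc9a5.

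**Figure D1:**
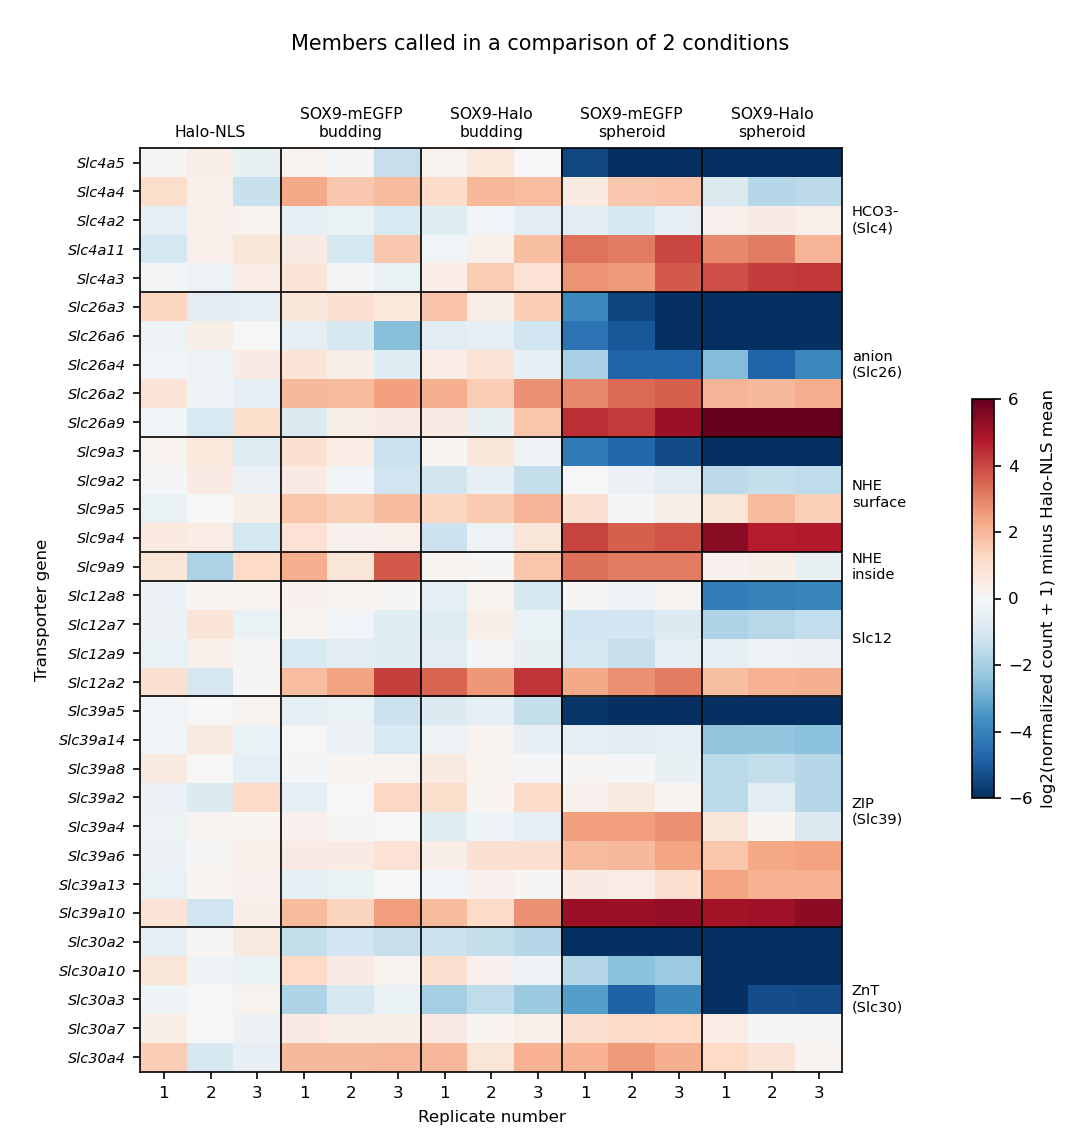
Of the members called in at least 1 comparison, 32 are drawn, grouped by role (rows), in the 15 libraries (columns, by condition and replicate number). Colour gives log2(normalized count + 1) minus the Halo-NLS mean, from blue (lower) to red (higher), with the scale ending at -6 and 6; the dark blue and dark red blocks lie almost wholly in the 6 spheroid libraries.

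The leading zinc importer was nearly lost from spheroids while others rose. Slc39a5 (ZIP5), the member with the highest level per kb of all 73 (mean of 3176 normalized counts per kb over the 15 libraries), fell in both. It lies on chromosome 10 (128231799 to 128237121, GRCm39). Slc39a5 stood at 14522, 16228 and 18883 in Halo-NLS, at 6137 to 12519 in the 6 budding libraries, at 288, 66.1 and 50.5 in SOX9-mEGFP_spheroid and at 26.1, 47.3 and 52.2 in SOX9-Halo_spheroid. Every spheroid library was below every other library, and the log2 fold change against the budding organoids of the same line was -6.22 ± 0.61 (SE, adjusted p = 2.7e-06) for SOX9-mEGFP and -7.71 ± 0.66 (adjusted p = 2.6e-07) for SOX9-Halo. Without SOX9-mEGFP_spheroid replicate 1 the former was -7.46. Summed over the 14 ZIP genes, the level went from 9793 to 12379 normalized counts per kb in Halo-NLS to 4456 to 4888 in SOX9-mEGFP_spheroid and 2336 to 2883 in SOX9-Halo_spheroid. Slc39a5 made up 61.3% to 67.8% of that sum in Halo-NLS. Without it the sum was 3336 to 4565 in Halo-NLS, 2426 to 3348 in SOX9-mEGFP_budding, 2482 to 3746 in SOX9-Halo_budding, 4427 to 4865 in SOX9-mEGFP_spheroid and 2313 to 2872 in SOX9-Halo_spheroid. SOX9-mEGFP_spheroid then overlapped Halo-NLS, and SOX9-Halo_spheroid lay below both but overlapped the budding organoids of both lines.

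Other ZIP genes rose. Slc39a4 (ZIP4), the apical importer mutated in the human zinc deficiency acrodermatitis enteropathica, was at 5500, 5608 and 6556 in SOX9-mEGFP_spheroid and led the family there. It was at 808 to 1117 in Halo-NLS, 594 to 1186 in the budding organoids and 532, 1066 and 1569 in SOX9-Halo_spheroid. Only the SOX9-mEGFP spheroids stood above all other libraries (log2 fold change 2.47 ± 0.31 against SOX9-mEGFP_budding, adjusted p = 2.5e-05). Slc39a6 and Slc39a10 (ZIP6 and ZIP10), related proteins that can pair with each other, rose in both spheroids. Slc39a10 went from 6.89 to 31.4 in Halo-NLS and 38.9 to 122 in the budding organoids to 628, 659 and 706 in SOX9-mEGFP_spheroid and 586, 625 and 746 in SOX9-Halo_spheroid. The spheroid values did not overlap the budding ones in either line (log2 fold change 3.22 ± 0.46, adjusted p = 8.5e-05, and 3.11 ± 0.46, adjusted p = 5.6e-05). Slc39a6 was at 157 to 248 in Halo-NLS and 644 to 1076 over the 6 spheroid libraries, again without overlap. Its exons overlap those of Elp2 on the other strand, as those of Slc39a13 overlap Psmc3, and the authors' counting ignored strand, so both are less certain. Slc39a13 (ZIP13, a Golgi and vesicle protein) was called only in the comparisons of SOX9-Halo_spheroid, where it was at 1023, 849 and 865 against 136 to 390 in the 12 other libraries.

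A further set fell in one line. Slc39a14 and Slc39a8 (ZIP14 and ZIP8), which also carry iron and manganese, were lower in SOX9-Halo_spheroid alone. Slc39a14 was at 2330, 2435 and 2188 there and at 6379 to 17344 in all other libraries, and Slc39a8 at 720, 828 and 675 against 1542 to 3279. Neither overlapped with any other condition. Slc39a2, a low member, was at 4.5 to 10.4 in SOX9-Halo_spheroid and 18.5 to 38.0 in SOX9-Halo_budding (log2 fold change -2.21 ± 0.62, adjusted p = 0.0091), a call lost in 8 of the 15 refits without 1 library (adjusted p of 0.01 to 0.038) and with the GC trend removed (0.020). Slc39a1, Slc39a3, Slc39a7, Slc39a9 and Slc39a11 were called in no comparison. Among them Slc39a1 (ZIP1) was at 1582 to 4031 over all 15 libraries and led the ZIP sum in each SOX9-Halo_spheroid library with 25.9% to 27.0%.

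**Figure D2:**
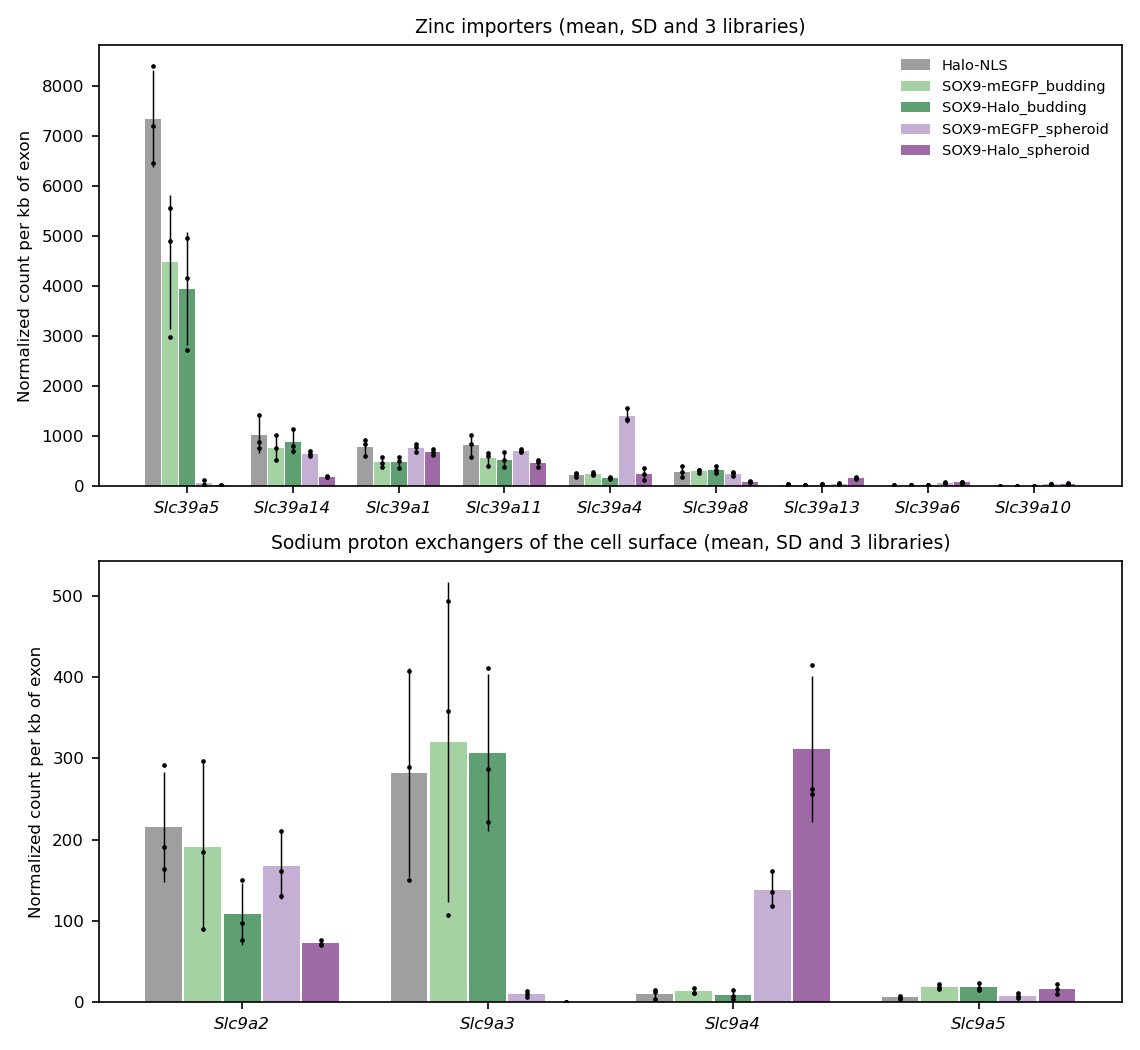
Normalized counts per kb of exon of 9 zinc importers (top) and 4 surface sodium proton exchangers (bottom) in the 5 conditions, with bars for means of 3 libraries, lines for the SD and points for the libraries. Slc39a5 towers over the other importers in the 3 conditions without spheroids, Slc39a4 stands out in SOX9-mEGFP_spheroid, and Slc9a4 is seen in the spheroids, where Slc9a3 is near 0.

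Among the zinc exporters, Slc30a2, Slc30a3 and Slc30a10 fell in both spheroids, and no ZnT gene was called higher in both. Slc30a2 (ZnT2), on chromosome 4 (134070234 to 134081795), was at 2681, 4254 and 5939 in Halo-NLS, at 1244 to 1864 in the budding organoids, at 20.4, 6.01 and 5.71 in SOX9-mEGFP_spheroid and at 3.55, 0 and 5.40 in SOX9-Halo_spheroid. The 3 levels were set apart without overlap, although the step from Halo-NLS to the budding organoids was not called by edgeR. It was called in both lines by DESeq2 and in edgeR without Halo-NLS replicate 1. Spheroids were lower than budding organoids by a log2 fold change of -7.23 ± 0.55 in the SOX9-mEGFP line (adjusted p = 2.9e-07) and -8.88 ± 0.62 in the SOX9-Halo line (adjusted p = 4.6e-08), which became -8.13 without SOX9-mEGFP_spheroid replicate 1 and -9.78 without SOX9-Halo_spheroid replicate 3. Of the 5 Paneth cell markers, all fell in SOX9-Halo_spheroid against SOX9-Halo_budding. In SOX9-mEGFP_spheroid 4 of 5 fell against SOX9-mEGFP_budding, while the fifth, Mmp7, rose to 37132 to 44544 and kept the summed list at 37566 to 45573.

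Slc30a10 (ZnT10), which mainly exports manganese, separated the lines. It was at 611 to 1814 in Halo-NLS and the budding organoids, at 244, 143 and 175 in SOX9-mEGFP_spheroid and at 1.18, 0 and 1.80 in SOX9-Halo_spheroid. The last 3 libraries held no more than 3 counts each, so the mean was at least 355-fold lower than in SOX9-Halo_budding, and against SOX9-mEGFP_budding the SOX9-mEGFP spheroids were lower by a log2 fold change of -2.78 ± 0.42 (adjusted p = 0.00015). Slc30a3 (ZnT3), best known from synaptic vesicles, fell from 96.7 to 134 in Halo-NLS to 3.00 to 10.6 and 0 to 1.89 in the spheroids. It was the 1 member lower in SOX9-Halo_budding than in Halo-NLS (23.4 to 38.9, log2 fold change -1.95 ± 0.42, adjusted p = 0.0095), a call that was lost with the GC trend removed (adjusted p = 0.019) and without any 1 of the 6 libraries but Halo-NLS replicate 1 (adjusted p of 0.01 to 0.051). Slc30a1 (ZnT1), the exporter of the plasma membrane that is induced by zinc, was at 605 to 824 in the 6 spheroid libraries and 1134 to 1566 in the 6 budding ones. These did not overlap, but the log2 fold changes of -0.96 ± 0.18 and -0.87 ± 0.18 were under the size required for a call. The Halo-NLS libraries (867, 766 and 640 counts before scaling) did not exceed the budding ones once scaled, and they overlapped the spheroids. Slc30a5, Slc30a6 and Slc30a9 (ZnT5, ZnT6 and ZnT9) were called nowhere, with Slc30a5 at 1741 to 3636 throughout. Slc30a4 and Slc30a7 were higher in SOX9-mEGFP_spheroid than in Halo-NLS. For Slc30a4 (2222, 3061 and 2252 against 1445, 266 and 365; log2 fold change 1.86 ± 0.52, adjusted p = 0.0087) the call was lost without Halo-NLS replicate 2 or 3 (adjusted p = 0.031 and 0.042) or without any 1 spheroid library, up to adjusted p = 0.033, and its log2 fold change was 3.00 without Halo-NLS replicate 1. Slc30a7 was at 1983 to 2334 against 807 to 1323, and its log2 fold change was 0.90 without Halo-NLS replicate 3 and 0.30 with the GC trend removed, both under the size required.

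Genes linked to zinc binding or zinc sensing were followed beside the transporters. Of 5 such genes, Mt1 and Mt2, metallothioneins that bind zinc, fell in both spheroids and the other 3, Mt3, Mtf1 and Gpr39, were not called. Mt1 was at 129137 to 267108 in Halo-NLS and 90532 to 232726 in the budding organoids, and at 41344 to 65042 and 27642 to 32672 in the SOX9-mEGFP and SOX9-Halo spheroids. The spheroids lay below all other libraries, with log2 fold changes against budding of -1.90 ± 0.30 (adjusted p = 0.00024) and -2.22 ± 0.31 (adjusted p = 3.3e-05). Mtf1, the zinc sensing transcription factor, stayed at 557 to 1003.

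Among the sodium proton exchangers of the cell surface, NHE3 mRNA fell and NHE4 mRNA rose in spheroids. Slc9a3 (NHE3), on chromosome 13 (74269360 to 74317561), was at 2207, 3118 and 1154 in Halo-NLS and 822 to 3776 in the budding organoids. It was at 105, 75.1 and 46.7 in SOX9-mEGFP_spheroid and at 0, 0 and 2.70 in SOX9-Halo_spheroid. The SOX9-Halo spheroids, with no more than 3 counts in any library, were at least 774-fold lower than SOX9-Halo_budding, and the SOX9-mEGFP spheroids were lower than SOX9-mEGFP_budding by a log2 fold change of -5.01 ± 0.60 (adjusted p = 1.8e-05). Slc9a4 (NHE4), an exchanger best known from gastric parietal cells and kidney, did the reverse. It was at 19.1 to 88.7 in the 9 libraries without spheroids, at 807, 588 and 676 in SOX9-mEGFP_spheroid and at 2067, 1276 and 1307 in SOX9-Halo_spheroid. No value overlapped (log2 fold change 3.33 ± 0.48, adjusted p = 8.5e-05, and 5.09 ± 0.52, adjusted p = 1.4e-06), and the latter was 5.77 without SOX9-Halo_budding replicate 3. Slc9a2 (NHE2) was lower in SOX9-Halo_spheroid than in Halo-NLS (500 to 549 against 1166 to 2084, adjusted p = 0.0032), a call lost without Halo-NLS replicate 2 or any 1 SOX9-Halo_spheroid library (adjusted p from 0.011 to 0.018). The exons of Slc9a3 overlap those of Exoc3, and those of Slc30a10 and Slc30a2 overlap Gm2061 and Extl1, each on the other strand.

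The NHE3 scaffold and cofactor genes were tested beside it. Of 8 such genes, 5 were lower in SOX9-Halo_spheroid than in SOX9-Halo_budding (Nherf2, Nherf4, Pdzk1, Chp2 and Prkg2) and 2 higher (Chp1 and Ezr), beside 14.7% and 10.5% of all genes. In the SOX9-mEGFP line 3 were lower (Nherf4, Pdzk1 and Chp2) and 1 higher (Ezr), beside 7.88% and 8.55%. Ezr encodes ezrin, which ties the brush border membrane to actin, and reached 25780 to 33423 in the spheroids and 11036 to 18351 in the budding organoids. It was at 13881 to 21758 in Halo-NLS, and neither spheroid condition was called against that control. Chp1, a cofactor of sodium proton exchangers, reached 14700 to 18764 in the spheroids against 6003 to 10007 elsewhere, with a log2 fold change of 0.91 ± 0.18 in the SOX9-mEGFP line that was under the size required.

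**Figure D3:**
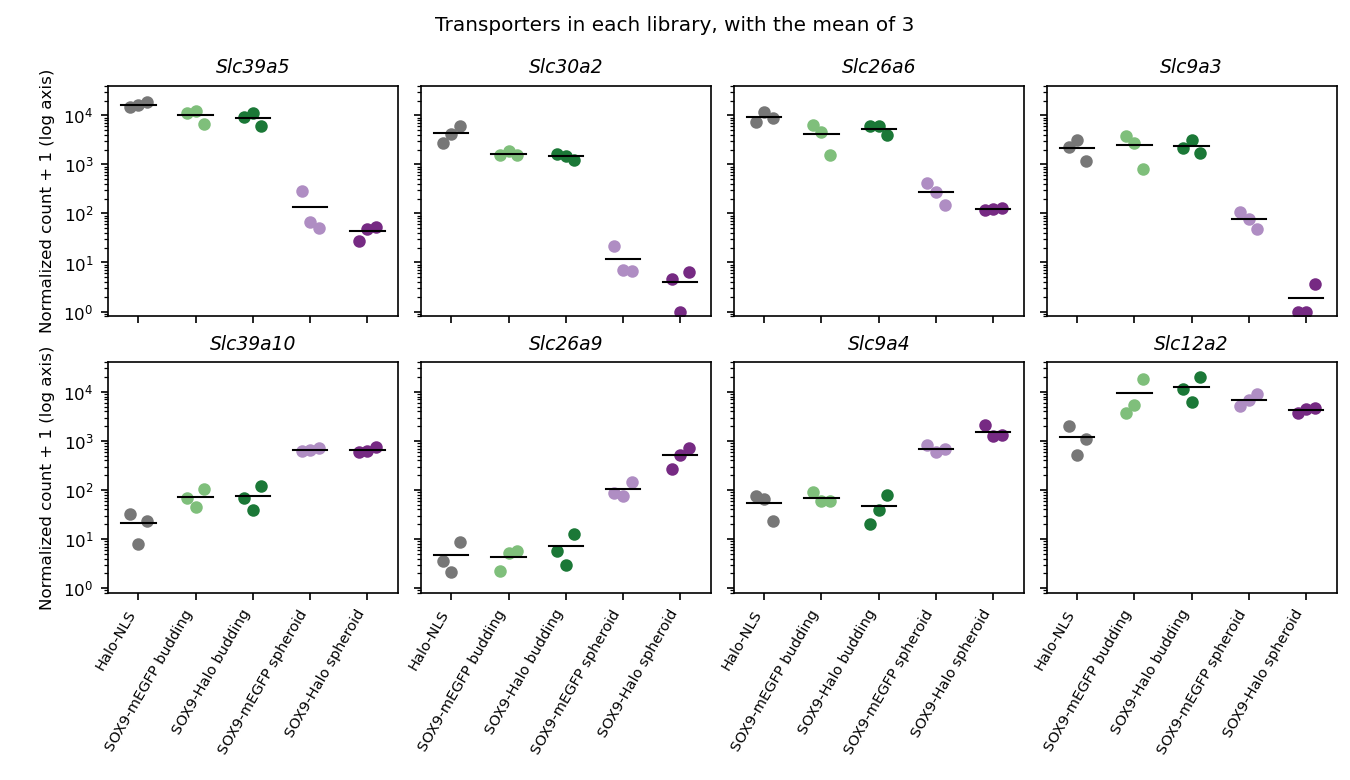
Normalized count + 1 (log axis) of 8 transporters in each of the 15 libraries, with a line at the mean of the 3 libraries of a condition. The 4 genes on top drop in both spheroid conditions, Slc39a10, Slc26a9 and Slc9a4 climb in them, and Slc12a2 is already high in the budding SOX9 organoids.

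The apical anion exchangers of enterocytes fell in spheroids too. Slc26a6 (PAT1), on chromosome 9, was at 7469, 11612 and 8950 in Halo-NLS, 1578 to 6270 in the budding organoids, 422, 267 and 145 in SOX9-mEGFP_spheroid and 114, 119 and 131 in SOX9-Halo_spheroid. The 4 levels did not overlap, and the step from Halo-NLS to budding was not called while that from budding to spheroid was (-3.90 ± 0.47, adjusted p = 1.8e-05, and -5.47 ± 0.51, adjusted p = 5.7e-07, on the log2 scale). Slc26a3 (DRA), mutated in congenital chloride diarrhoea, was at 878 to 3416 in Halo-NLS, 1846 to 4718 in the budding organoids, 95.8, 30 and 4.76 in SOX9-mEGFP_spheroid and 3.55, 0.946 and 3.60 in SOX9-Halo_spheroid. Its spheroid values were below all others (log2 fold change -5.77 ± 0.81, adjusted p = 7.2e-05, and -10.29 ± 1.06, adjusted p = 1.7e-06), with -7.13 in the SOX9-mEGFP line without SOX9-mEGFP_spheroid replicate 1. Slc26a4 (pendrin), a low member, was at 15.6 to 48.7 in the 9 libraries without spheroids and 0 to 6.21 in the spheroids. Of its 4 calls, 3 were lost in 2 to 4 of the 15 refits without 1 library (adjusted p of 0.01 to 0.016).

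Another anion transporter rose from near 0. Slc26a9, a chloride channel and exchanger of stomach and airway surface cells, was at 1.15 to 11.7 in the 9 libraries without spheroids, at 87, 74.1 and 144 in SOX9-mEGFP_spheroid and at 271, 522 and 720 in SOX9-Halo_spheroid. None of these overlapped, and spheroids exceeded budding organoids by a log2 fold change of 4.81 ± 0.64 (adjusted p = 4.3e-05) and 6.34 ± 0.62 (adjusted p = 9.8e-07), the latter at 7.16 without SOX9-Halo_budding replicate 3. The SOX9-Halo spheroids were also above the SOX9-mEGFP spheroids (2.31 ± 0.49, adjusted p = 0.0025), a call lost without SOX9-Halo_spheroid replicate 3 or SOX9-mEGFP_spheroid replicate 1 or 2 (adjusted p of 0.017 to 0.020). Slc26a2, the sulfate transporter needed for cartilage proteoglycans, was higher in all 4 SOX9 conditions. It was at 418, 211 and 167 in Halo-NLS, at 695 to 1633 in the budding organoids, at 1810, 2556 and 2990 in SOX9-mEGFP_spheroid and at 962 to 1116 in SOX9-Halo_spheroid. The 12 SOX9 libraries were all above the control. Its log2 fold change was 2.02 ± 0.36 (adjusted p = 0.0035) in SOX9-mEGFP_budding and 2.10 ± 0.36 (adjusted p = 0.0026) in SOX9-Halo_budding. Both calls were lost without Halo-NLS replicate 2 or 3 (adjusted p of 0.014 to 0.022) or without replicate 3 of the budding condition (0.011 and 0.020). Summed per kb, the 11 Slc26 genes went from 1772 to 2231 in Halo-NLS to 306 to 365 and 206 to 283 in the spheroids, led by Slc26a6 in Halo-NLS, by Slc26a2 in SOX9-mEGFP_spheroid and by Slc26a9 or Slc26a2 in SOX9-Halo_spheroid.

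The Slc4 family of bicarbonate transporters was summed at 1143 to 1618 normalized counts per kb in Halo-NLS, 835 to 1051 in SOX9-mEGFP_spheroid and 1309 to 1518 in SOX9-Halo_spheroid, while single members moved far. Slc4a2 (AE2), the basolateral chloride bicarbonate exchanger, led the family in every library. It was at 6618, 11609 and 11171 in Halo-NLS, 5074 to 8607 in the budding organoids, 4814 to 6713 in SOX9-mEGFP_spheroid and 11486 to 13431 in SOX9-Halo_spheroid. It was called only between the 2 spheroid conditions (log2 fold change 1.07 ± 0.24, adjusted p = 0.0041), a call lost without 1 of 4 libraries in turn (adjusted p of 0.013 to 0.029), and its exons overlap those of Fastk on the other strand. Slc4a5 (NBCe2), a sodium bicarbonate cotransporter, was at 1491, 1876 and 1065 in Halo-NLS and 544 to 2214 in the budding organoids but at 31.9, 22.0 and 18.1 and at 8.29, 10.4 and 12.6 in the spheroids. Its log2 fold change against budding was -5.62 ± 0.44 (adjusted p = 3.4e-07) in the SOX9-mEGFP line and -7.39 ± 0.48 (adjusted p = 2.3e-08) in the SOX9-Halo line, without overlap. Slc4a4 (NBCe1), the main basolateral bicarbonate importer of the gut, was lower in the SOX9-Halo spheroids (277, 156 and 170 against 1104 to 2033 in SOX9-Halo_budding and 746 to 1691 in SOX9-mEGFP_spheroid). These did not overlap, with an adjusted p of 0.00017 and 0.00079. Against Halo-NLS the Slc4a4 difference was not called (log2 fold change -1.63 ± 0.48, adjusted p = 0.012). Slc4a3 (AE3), an exchanger of heart and brain, and Slc4a11, a proton carrier of the cornea, rose from low levels. Slc4a3 was at 3.11 to 14.6 outside the spheroids and at 31.0 to 101 in them, and Slc4a11 at 11.4 to 89.8 and 107 to 422. The Slc4a11 call in SOX9-Halo_spheroid against Halo-NLS was lost without any 1 of 4 libraries (adjusted p of 0.012 to 0.018), and that in SOX9-mEGFP_spheroid against SOX9-mEGFP_budding without any 1 of 3 (0.017 to 0.019). Slc4a1 (AE1), the exchanger of red cells, never exceeded 3 counts, and Slc4a7 was called nowhere.

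Carbonic anhydrase genes, most of which encode enzymes that make the bicarbonate and protons these exchangers carry, were followed as partners. Car2 rose from 35.2 to 98.0 in Halo-NLS through 227 to 773 in the budding organoids to 6113 to 7403 in SOX9-mEGFP_spheroid and 9008 to 10367 in SOX9-Halo_spheroid. The ranges were separate at each step but for the 2 budding conditions, and each SOX9 condition was called against Halo-NLS (log2 fold change from 2.56 ± 0.39 to 7.13 ± 0.47, adjusted p of at most 0.0013). Car9, a carbonic anhydrase of the cell surface, was at 9547 to 12341 in Halo-NLS, 4027 to 10529 in the budding organoids, 12679 to 15646 in SOX9-mEGFP_spheroid and 3365 to 6016 in SOX9-Halo_spheroid, where it was lower than in Halo-NLS (log2 fold change -1.23 ± 0.30, adjusted p = 0.0035). Of 10 carbonic anhydrase genes tested, 4 were higher (Car2, Car5b, Car12 and Car13) and 3 lower (Car6, Car8 and Car9) in SOX9-Halo_spheroid than in Halo-NLS, beside 13.6% and 15.3% of all genes. In SOX9-mEGFP_spheroid 3 were higher (Car2, Car5b and Car12) and 0 lower, beside 15.3% and 12.1%.

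Among the cation chloride cotransporters, Slc12a2 rose already in budding organoids and Slc12a8 and Slc12a7 fell in the SOX9-Halo spheroids. Slc12a2 (NKCC1) was at 1979, 523 and 1081 in Halo-NLS, at 3698, 5523 and 18645 in SOX9-mEGFP_budding, at 11657, 6327 and 20308 in SOX9-Halo_budding, at 5040, 6931 and 8840 in SOX9-mEGFP_spheroid and at 3659, 4463 and 4603 in SOX9-Halo_spheroid. All 12 SOX9 libraries were above the 3 controls, but the budding libraries spread widely. Its log2 fold change against Halo-NLS was 2.96 ± 0.61 (adjusted p = 0.008), 3.42 ± 0.62 (0.0036), 2.54 ± 0.60 (0.0029) and 1.83 ± 0.58 (0.017, not called) in these 4 conditions, and the 3 calls remained with the GC trend removed. They were lost without Halo-NLS replicate 2 or 3 (adjusted p of 0.013 to 0.041) and without replicate 3 of the SOX9 condition (0.011 to 0.029), and the call in SOX9-mEGFP_budding also without its replicate 2 (0.011). Without SOX9-mEGFP_budding replicate 3 the log2 fold change of that condition was 1.95. Slc12a8, a family member described as a carrier of nicotinamide mononucleotide, was at 216, 232 and 256 in SOX9-Halo_spheroid and at 1945 to 4576 in the 12 other libraries. It was called against Halo-NLS, SOX9-Halo_budding and SOX9-mEGFP_spheroid (log2 fold change -4.01 ± 0.30 against the last, adjusted p = 1.9e-07). Slc12a7 (KCC4), a potassium chloride exporter, was at 1275 to 1656 in SOX9-Halo_spheroid, 2782 to 6028 in SOX9-Halo_budding and 3461 to 7684 in Halo-NLS. The 2 calls this gave (adjusted p = 0.0029 and 0.00079) included 1 against SOX9-Halo_budding that was lost without SOX9-Halo_budding replicate 2 or SOX9-Halo_spheroid replicate 1 or 2 (adjusted p of 0.012 to 0.019). Slc12a9 was lower in SOX9-mEGFP_spheroid than in Halo-NLS (668 to 1167 against 1340 to 2173, log2 fold change -1.01 ± 0.24, adjusted p = 0.003), a call lost in 5 of the 15 refits without 1 library and with the GC trend removed (log2 fold change -0.65). Of the 6 tested kinase genes that regulate these cotransporters, Wnk1 and Stk39 (SPAK) were higher in both spheroids than in Halo-NLS. Against budding organoids of the same line, only Stk39 of these kinases was called. Among channel genes of salt transport, Kcne3, Kcnn4 and Ano1 were higher in both spheroids than in Halo-NLS, Scnn1a was lower in both, and Cftr and Clcn2 were lower in SOX9-Halo_spheroid. Of all genes, 13.6% were called higher and 15.3% lower in SOX9-Halo_spheroid than in Halo-NLS, and 15.3% and 12.1% in SOX9-mEGFP_spheroid.

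Among the sodium proton exchangers of inner membranes, Slc9a9 was called in SOX9-mEGFP_spheroid. Slc9a8 (NHE8) was called nowhere at 1237 to 3403. Slc9a7 and Slc9a9 were low. Slc9a7, on the X chromosome, was at 26.6, 37.0 and 59.0 in SOX9-mEGFP_spheroid, at 2.34 to 4.15 in the budding organoids and at 0 in all Halo-NLS and SOX9-Halo_spheroid libraries, with a mean over all libraries below the 10 required for a call. Slc9a9 was at 30.5 to 36.4 in SOX9-mEGFP_spheroid, 0 to 7.54 in Halo-NLS and 1.80 to 3.78 in SOX9-Halo_spheroid (adjusted p = 0.0081 and 0.0069). Its highest value of all, 46.7, was in a SOX9-mEGFP_budding library, beside 15.8 and 5.19 in the other two. The call against Halo-NLS was lost in 10 of the 15 refits without 1 library (adjusted p of 0.01 to 0.028) and with the GC trend removed (0.026), and that between the spheroids in 6 of 15 (0.015 to 0.04). Slc9a5, a low surface exchanger of neurons, was at 31.4 to 55.3 in Halo-NLS and 105 to 173 in SOX9-Halo_budding (log2 fold change 1.63 ± 0.36, adjusted p = 0.0097). That call was lost without any 1 of the 6 libraries (adjusted p of 0.012 to 0.043), as was that in SOX9-Halo_spheroid (71.1 to 157, log2 fold change 1.40 ± 0.35, adjusted p = 0.0044) without any 1 of 4 (0.013 to 0.03).

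The sodium calcium exchangers were almost silent. None of the 5 Slc24 genes and 1 of the 3 Slc8 genes passed the count filter, and the 8 summed to 1.02 to 6.96 normalized counts per kb. Slc8a1 (NCX1), the heart exchanger, was at 4.59 to 23.9 in the 9 libraries without spheroids and 0 to 1.80 in the spheroids, with no more than 3 counts in any of them and a mean too low for a call. The leading Slc24 gene, Slc24a5, reached 25.7 in SOX9-mEGFP_budding replicate 3 and shares exon sequence with Myef2 on the other strand.

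Both lines were then set side by side, since the comparisons of spheroid with budding organoids share no library. In the SOX9-Halo line 21 members were called and in the SOX9-mEGFP line 16. Of these, 14 were called in both, which is 66.7% of the former and 87.5% of the latter, and all 14 moved the same way. Over all tested genes the shares were 51.9% and 79.8%, with 97.7% of the genes called in both moving the same way. Lower in both were Slc26a3, Slc26a4, Slc26a6, Slc30a2, Slc30a3, Slc30a10, Slc39a5, Slc4a5 and Slc9a3, and higher in both were Slc26a9, Slc39a6, Slc39a10, Slc4a3 and Slc9a4.

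**Figure D4:**
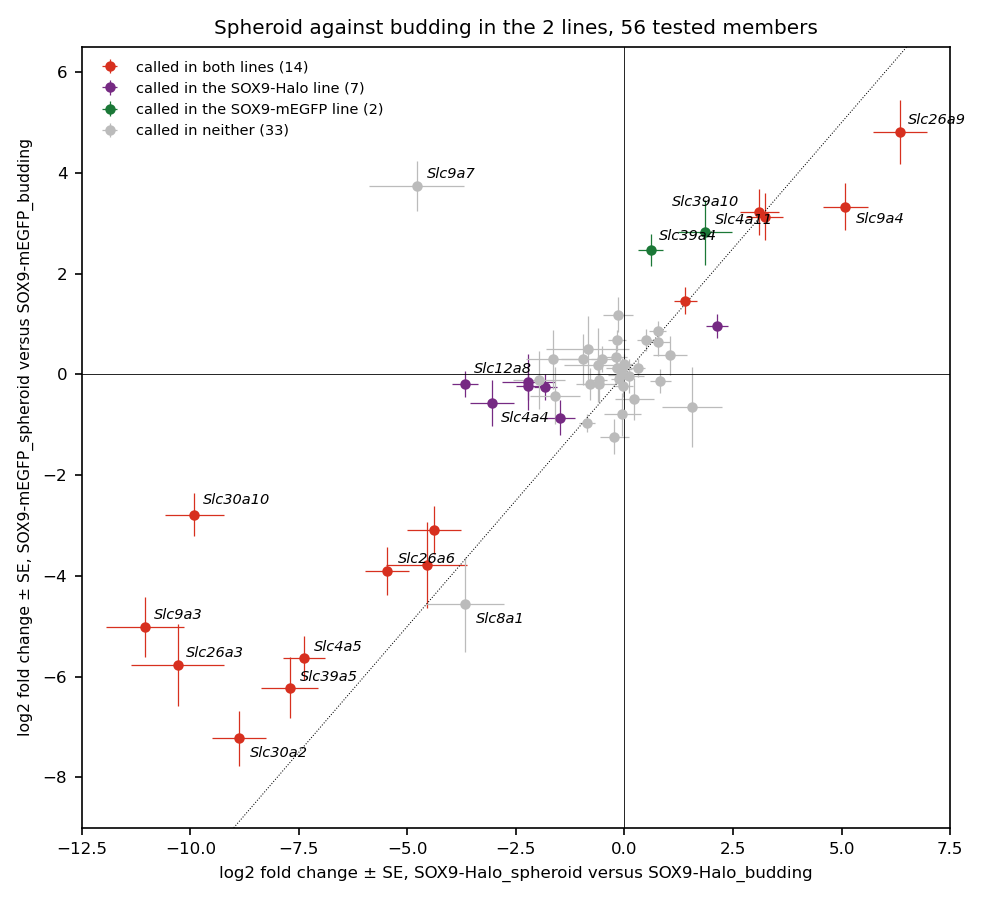
Log2 fold change with SE of the 56 tested members, spheroid against budding, in the SOX9-Halo line (horizontal) and the SOX9-mEGFP line (vertical), with the line of equal change dotted. Members called in both lines (14, red) lie in the lower left and upper right, and the grey point at the upper left is Slc9a7, whose mean count was too low for a call.

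The size of the change differed between the lines for 6 members, all with the more negative change in the SOX9-Halo line (5.58% of all genes were called so, and 1.81% the other way). They were Slc30a10 (difference of log2 fold changes -7.12 ± 0.81, adjusted p = 2.5e-05), Slc9a3 (-6.03 ± 1.08, adjusted p = 0.0014), Slc12a8 (-3.48 ± 0.38, adjusted p = 1.9e-05), Slc39a14 (-1.98 ± 0.39, adjusted p = 0.0026), Slc39a4 (-1.87 ± 0.42, adjusted p = 0.0069) and Slc39a8 (-1.58 ± 0.36, adjusted p = 0.0087). For Slc30a10 and Slc9a3, with no more than 3 counts in any SOX9-Halo_spheroid library, the fitted difference depends on the fit's prior count, and with the SOX9-Halo change at its bound it was -5.69 and -4.58. The Slc39a8 call was lost without any 1 of 11 of the 12 libraries (adjusted p of 0.01 to 0.029) and with the GC trend removed (0.059), the Slc39a4 call without any 1 of 10 (0.01 to 0.025), and the Slc39a14 call without SOX9-mEGFP_budding replicate 3 (0.012). No member was called the other way by edgeR, with 3 at an unadjusted p under 0.05 (Slc39a13, Slc9a4 and Slc4a2) and 1, Slc39a13, called by DESeq2. Between the spheroids of the 2 lines, 3 members were higher in SOX9-Halo_spheroid (Slc26a9, Slc39a13 and Slc4a2) and 8 lower (Slc39a4, Slc39a8, Slc39a14, Slc30a10, Slc4a4, Slc9a3, Slc9a9 and Slc12a8), beside 3.59% and 9.58% of all genes. The Slc39a8 call was lost with the GC trend removed (adjusted p = 0.021). The enterocyte list was lower there too, at 77.6 to 215 against 7589 to 19142. The budding organoids of the 2 lines differed in 0 members in either direction (0.29% and 0.165% of all genes), with 0 higher and 4 lower at an unadjusted p under 0.05 and 0 by DESeq2.

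Promoter sequences are shown for a pair of members that fell and a pair that rose in spheroids, since these moved together in both lines. RefSeq sequences on GRCm38.p6, from 250 bases before to 50 after the annotated start, were at hand for 56 of the 73 members. Each gene was represented by 1 annotated start, and which start these organoids use was not tested. Capitals mark ACAAT or its reverse complement ATTGT, the core bound by SOX proteins, searched on both strands. Slc39a5 lies on the minus strand (chr10:128401175-128401474) and Slc9a3 on the plus strand (chr13:74121163-74121462), and both fell. Slc39a10 lies on the minus strand (chr1:46925727-46926026) and Slc26a9 on the plus strand (chr1:131743772-131744071), and both rose.
Slc39a5: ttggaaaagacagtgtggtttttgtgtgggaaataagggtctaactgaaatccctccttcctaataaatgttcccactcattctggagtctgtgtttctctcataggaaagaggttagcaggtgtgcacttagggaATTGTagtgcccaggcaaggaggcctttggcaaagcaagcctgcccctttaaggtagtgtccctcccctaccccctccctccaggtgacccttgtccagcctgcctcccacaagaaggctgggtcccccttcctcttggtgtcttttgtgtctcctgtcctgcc
Slc9a3: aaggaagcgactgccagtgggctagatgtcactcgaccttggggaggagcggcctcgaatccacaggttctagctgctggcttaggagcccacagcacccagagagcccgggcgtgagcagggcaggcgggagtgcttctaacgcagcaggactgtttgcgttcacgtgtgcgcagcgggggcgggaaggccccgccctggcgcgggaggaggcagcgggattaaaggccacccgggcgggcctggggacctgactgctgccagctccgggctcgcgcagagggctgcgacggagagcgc
Slc39a10: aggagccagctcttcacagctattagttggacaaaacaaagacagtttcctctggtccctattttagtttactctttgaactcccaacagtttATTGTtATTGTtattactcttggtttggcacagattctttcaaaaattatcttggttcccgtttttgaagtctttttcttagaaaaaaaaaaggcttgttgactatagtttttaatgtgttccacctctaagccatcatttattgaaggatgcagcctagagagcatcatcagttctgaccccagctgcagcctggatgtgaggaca
Slc26a9: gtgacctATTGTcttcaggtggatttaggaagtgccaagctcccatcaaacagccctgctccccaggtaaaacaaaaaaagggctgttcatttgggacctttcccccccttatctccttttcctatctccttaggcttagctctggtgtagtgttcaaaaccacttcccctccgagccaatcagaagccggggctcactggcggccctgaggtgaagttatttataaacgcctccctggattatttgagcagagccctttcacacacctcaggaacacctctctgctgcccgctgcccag
The core was found 1 time in the Slc39a5 window, 2 times in that of Slc39a10, 1 time in that of Slc26a9 and not in that of Slc9a3. It was in 4 of the 9 promoters of members lower in both lines and in all 3 available of members higher in both, beside 31.6% of 27025 promoters of this length. The CDX core TTTAT (both strands) was in 6 of the 9 and 2 of the 3, beside 40.9% of all, and the core of the metal response element, TGCACNC or TGCGCNC, in 5 of the 9, among them Slc30a2, Slc30a10 and Slc39a5, and 1 of the 3, beside 25.6%. The HNF4 core CAAAG was in 5 of the 9 and 1 of the 3, beside 54.0% of all, and the TATA box TATAAA (forward strand) in 3 of the 9 and 1 of the 3, beside 8.88%. A match describes the letters in this window and is not a bound site.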

How the data were processed

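Whole-number counts per gene from 15 poly-A libraries (NEBNext Ultra II, paired-end) were deposited. The authors trimmed reads with cutadapt 4.5, aligned them with STAR to mm39 and counted genes with HTSeq 2.0.2, ignoring strand. Here the counts were fitted in edgeR 4.0.16 under R 4.3.3 (TMM scaling, filterByExpr, quasi-likelihood test, 1 coefficient per condition), with p-values adjusted by Benjamini-Hochberg over 17560 genes. Calls required an adjusted p no higher than 0.01, a normalized count averaging 10 or more over all libraries and a fold of 2 or more. Standard errors were derived from each log2 fold change and its F statistic. Exon lengths and coordinates came from GENCODE M39 (GRCm39). Bounds written as "at least" used a floor of 3 counts per library and cover counting error only.

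The members, gene lists and tests were chosen with earlier results of these data known. Members were named where they were among the 3 highest of their family per kb or called between the lines. They were also named where they were among the 8 largest called rises or falls of a comparison with a mean of 50 or more. A fixed list of transporters was named whatever its values. Of partner and marker lists the 3 highest members were named with values. Slc26a4, Slc39a2, Slc9a7, Slc9a9, Slc30a7, Slc12a9 and Mmp7, and those given only in counts, were named after their values were seen. Alternatives were RLE scaling, library sizes alone, no filter, DESeq2 1.42.0, only the libraries compared, each library left out, a replicate block, and an offset for GC content that was added after seeing the data. Deviations of libraries with the same replicate number correlated at 0.234 to 0.403 between SOX9-Halo_budding and SOX9-Halo_spheroid, over 11054 genes. In every other pair of conditions the lowest such correlation was 0.072 or less. Single same-number correlations were higher elsewhere, at -0.055 to 0.817 between Halo-NLS and SOX9-Halo_budding and 0.04 to 0.74 between the budding conditions. The fit was tested on simulated data. Results for some genes are not reported here, although counts over all members include them.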

Additional observations from a re-analysis of the deposited data

Results flagged for a closer look

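The change from budding organoids to spheroids differed between the lines for 6 members, tested as an interaction in edgeR, and for 0 in the other direction, where 3 had an unadjusted p under 0.05 and DESeq2 called 1. Differences of log2 fold changes (SOX9-Halo minus SOX9-mEGFP) were -7.12 for Slc30a10, -6.03 for Slc9a3, -3.48 for Slc12a8, -1.98 for Slc39a14, -1.87 for Slc39a4 and -1.58 for Slc39a8. With the SOX9-Halo change set at the bound that 3 counts per library allow, the first 2 were -5.69 and -4.58. For Slc39a4 the SOX9-mEGFP line rose, and for Slc30a10 and Slc9a3 both lines fell. The enterocyte list also differed between the lines, with 7 of 8 markers lower by the same test, and its part in these differences was not tested.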

How the results depend on the processing

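Of 98 calls of genes named by the rule, 77 held under every setting, and none of 1329 refits turned a direction. Counts of called members in the spheroid comparisons with Halo-NLS and with budding organoids stayed within 1.5 times. With the replicate number as a block, the SOX9-Halo line had 7 members higher and 15 lower in spheroids (7 and 16 on the libraries compared), and no count moved by over 1.5 times in any comparison.

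The budding comparisons with Halo-NLS were the least stable. Higher members numbered 9 in both lines without a filter on low counts, 5 in both with DESeq2, 0 in both on the libraries compared, and 0 to 8 in both when 1 library was left out, with 8 without Halo-NLS replicate 1 and 0 without its replicate 2 or 3 or without replicate 3 of the budding condition. Lower members in SOX9-Halo_budding numbered 0 with library sizes alone, on the libraries compared or with the GC offset, 2 with no filter or DESeq2, and 0 to 2 with 1 library left out. In SOX9-mEGFP_budding they numbered 2 with no filter or DESeq2 and 0 to 2 with 1 library left out. Between the spheroids, 16 members were lower without the filter and 14 on the libraries compared, and 1 to 3 were higher with 1 library left out, with 1 without SOX9-Halo_spheroid replicate 3 or SOX9-mEGFP_spheroid replicate 1 or 2. For the difference between the lines, no filter gave 1 higher and 12 lower, DESeq2 1 higher, and leaving out 1 library 3 to 6 lower, with 3 without SOX9-mEGFP_budding replicate 3. The causes were not tested. With library sizes alone the median log2 fold change of all genes reached 0.31 (SOX9-Halo_budding against Halo-NLS), where the main fit gave 0.009.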
